A study of Homo sapiens with 4 samples.

Results

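The genes described here build and run the mitotic apparatus: the cyclin and CDK1 engine, the Polo-like and Aurora kinases, the spindle checkpoint, the kinetochore, kinesin motors, the spindle midzone and the condensins. They were chosen by a pattern of gene symbols. The rule used no measured values, but it was chosen with earlier results of these data known. It matched 103 of the 11597 genes in the authors' deposited table. The table compares MOLM13, an established human line of acute myeloid leukaemia, carrying a lentiviral BTG2 cDNA (2 libraries) with MOLM13 carrying the empty vector (2 libraries). Every library came from cells infected with the same lentiviral backbone, with an EF1α promoter, puromycin resistance and ZsGreen, and collected 3 days later. Infection was by a spin of 60 min at 1500 rcf and 32 °C with 5 µg/ml polybrene, and serum was 10%. The labels mention neither selection nor separate cultures. BTG2 is an antiproliferative adaptor that brings the CCR4-NOT deadenylase to messenger RNA, and the stated question was its role in mRNA stability.

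Entry into mitosis is driven by CDK1 bound to cyclins A and B, which CDC25 phosphatases switch on. Polo-like and Aurora kinases then shape the spindle, kinetochores tie chromosomes to microtubules, and the checkpoint holds back the anaphase-promoting complex until every chromosome is attached. Most of these genes are transcribed in G2 and mitosis, and their messenger levels are a common readout of how much of a culture is cycling. In bulk RNA a lower share of cells in G2 and mitosis and less of each messenger per cell cannot be told apart.

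BTG2 checked the labels, standing 32.3-fold higher (log2 5.01, SE 0.09) in the authors' deposited table, where cDNA and endogenous reads are not separated. Of 11 markers of this kind of leukaemia cell line 10 were listed, among them LYZ, SPI1, CEBPA, FLT3 and HOXA9, and CD14 was not listed. Of 9 markers of other cell types only NCAM1 and PECAM1 were listed, with mean normalized counts of 299 and 65.7 against 71.6 to 6277 for the leukaemia markers. Single libraries were not analysed here. Their depth and spread are unknown, each error is the authors' standard error (SE), and p-values may measure technical spread alone.

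Transcripts of the mitotic apparatus were mostly a little lower with BTG2, and 14 of the 103 members passed the authors' test at an adjusted p under 0.05. CKS1B, CKS2, CDK1, CCNA2, HMGB2, CENPV, CENPH, NUF2, NDC80, TTK, UBE2C and HMMR fell, 12 in all. MKI67 and SPC24 rose, 2 in all. The share called was 13.6% of members against 8.11% of all listed genes. In the lower direction 11.7% of members were called against 4.47% of all listed genes, and in the higher direction 1.94% against 3.64%. The median log2 fold change was -0.13 over the members and 0.00 over all listed genes, and 74 members (71.8%) had a negative value against 49.9% of all listed genes.

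The 12 that fell ranged from -0.53 to -0.22, with a median of -0.35. All 14 called members lay among the 62 whose mean normalized count reached the table's median of 151, where 22.6% of members were called against 13.6% of listed genes, and 19.4% were called lower against 7.6% of listed genes. The 41 members below that count had a median SE of 0.30, and 0 passed the authors' test, with 3 at an unadjusted p under 0.05. Of all listed genes, 790 of the 940 called also lay at or above it, as did 1549 of the 2036 at an unadjusted p under 0.05.

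**Figure D1:**
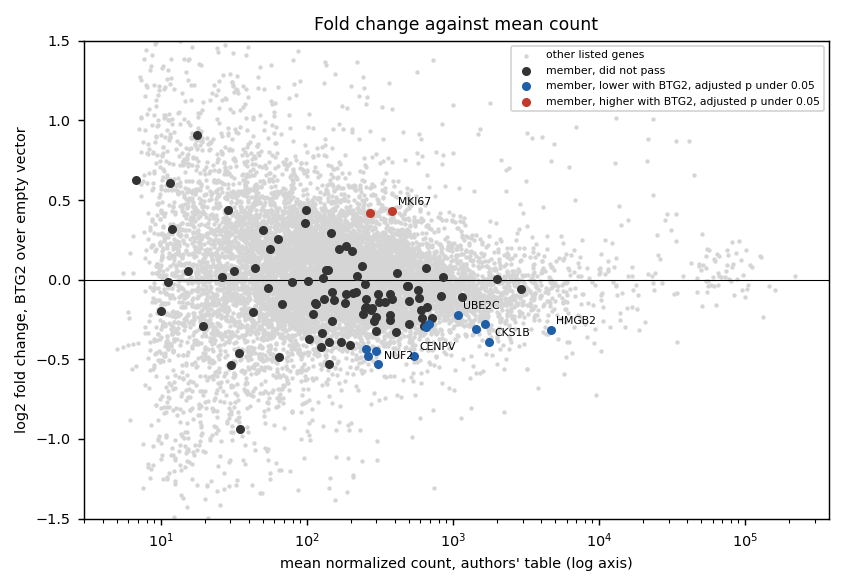
Log2 fold change of BTG2 over empty vector (y axis) against the mean normalized count in the authors' deposited table (log x axis), with members in black, blue and red over all other listed genes in light grey; 138 genes beyond 1.5 in size are not drawn. The 12 members that fell sit at mean counts of 254 to 4683 and between -0.53 and -0.22, while MKI67 and SPC24 lie above 0.

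Of the 9 genes of the CDK1 engine, the kinase, both CKS subunits and cyclin A2 fell. In all 4 fell and 0 rose, with a median log2 fold change of -0.28. Beside this and the later roles stand 4.47% of all listed genes called lower, 3.64% called higher and 49.9% negative. In roles this small, a count of 0 or 1 called gene is not by itself a result about the role. Gene coordinates here and below are those of GENCODE release 29 on GRCh38. CDK1 (ENSG00000170312.17, chr10:60778331-60794852, plus strand), the kinase that drives entry into mitosis, fell by 0.28 on the log2 scale (SE 0.06, authors' adjusted p = 0.000101), to 0.826 of the empty vector level, in the authors' deposited table. Both small CDK-binding subunits moved with it. CKS1B (ENSG00000173207.13, chr1:154974653-154979249, plus strand) fell by 0.39 (SE 0.08, authors' adjusted p = 8.11e-05) and CKS2 (ENSG00000123975.5, chr9:89311198-89316703, plus strand) fell by 0.31 (SE 0.07, authors' adjusted p = 0.000541) in the authors' deposited table. Their mean normalized counts, 1778 for CKS1B, 1659 for CDK1 and 1451 for CKS2, were the highest of the engine.

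All 3 mitotic cyclins had negative values. Cyclin A2, CCNA2 (ENSG00000145386.11, chr4:121816444-121823933, minus strand), which acts with CDK partners in S phase and G2, fell by 0.30 (SE 0.09, authors' adjusted p = 0.0144) in the authors' deposited table; 254 of its exonic bases lie opposite exons of EXOSC9. The library kit was directional per the labels, while strand use in counting is unstated in the sources. The B cyclins that carry CDK1 into mitosis did not pass, with CCNB1 at -0.22 (95% interval -0.45 to 0.01) and CCNB2 at -0.46 (95% interval -1.21 to 0.28) in the authors' deposited table. CCNB2 was poorly measured, at a mean normalized count of 34.3. The 3 CDC25 phosphatases, which remove the inhibitory phosphates from CDK1, had log2 fold changes of 0.29 for CDC25A (SE 0.22), 0.18 for CDC25B (SE 0.19) and -0.05 for CDC25C (SE 0.30), and none of them passed in the authors' deposited table.

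Start-site sequence was not used in the symbol rule. Elements known from G2 and mitosis genes occurred at many, but not all, of the members' starts. Many G2 and mitosis genes carry a cell cycle genes homology region (CHR), which is bound by the MuvB complexes, and upstream CCAAT boxes, which are bound by NF-Y. The sequences below run from 80 bases before to 20 bases into the RefSeq start (GRCh38.p14), 5′ to 3′ on the gene's strand. They are shown for core members that fell, for PLK1 just outside the threshold, and for both members that rose. Capitals mark CHR letters (TTTGAA, its reverse complement TTCAAA, or TTCGAA, which is its own reverse complement) and CCAAT boxes (CCAAT or ATTGG); only exact matches on either strand were searched.
CKS1B (chr1:154974601-154974700, plus strand): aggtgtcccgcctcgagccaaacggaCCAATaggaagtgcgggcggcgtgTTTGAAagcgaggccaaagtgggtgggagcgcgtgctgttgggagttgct
CKS2 (chr9:89311115-89311214, plus strand): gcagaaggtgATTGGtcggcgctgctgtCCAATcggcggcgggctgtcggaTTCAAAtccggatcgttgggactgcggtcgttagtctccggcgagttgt
CDK1 (chr10:60778251-60778350, plus strand): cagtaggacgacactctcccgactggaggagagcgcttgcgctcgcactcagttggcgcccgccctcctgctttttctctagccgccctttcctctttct
CDK1 (chr10:60778398-60778497, plus strand): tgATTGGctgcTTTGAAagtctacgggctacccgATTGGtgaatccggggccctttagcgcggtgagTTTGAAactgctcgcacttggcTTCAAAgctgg
HMMR (chr5:163460552-163460651, plus strand): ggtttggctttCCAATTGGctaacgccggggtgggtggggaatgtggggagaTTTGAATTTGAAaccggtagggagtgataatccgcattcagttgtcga
CCNA2 (chr4:121823864-121823963, minus strand): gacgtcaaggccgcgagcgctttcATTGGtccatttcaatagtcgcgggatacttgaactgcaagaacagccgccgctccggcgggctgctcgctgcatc
PLK1 (chr16:23678809-23678908, plus strand): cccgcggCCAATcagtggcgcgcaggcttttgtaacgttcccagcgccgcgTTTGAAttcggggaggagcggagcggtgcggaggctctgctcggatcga
MKI67 (chr10:128126404-128126503, minus strand): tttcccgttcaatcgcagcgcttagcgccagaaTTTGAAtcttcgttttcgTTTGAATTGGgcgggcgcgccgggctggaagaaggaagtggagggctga
SPC24 (chr19:11155763-11155862, minus strand): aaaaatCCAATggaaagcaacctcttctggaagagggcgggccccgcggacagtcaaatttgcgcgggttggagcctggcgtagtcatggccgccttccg

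In the CKS1B window the CHR letters begin 30 bases before the start with a CCAAT box at 54, and in the CKS2 window they begin at 29 with boxes at 52 and 70. The PLK1 window has the same layout, at 29 and 73. HMMR has a tandem CHR match at 28 and 22 bases and a palindromic CCAATTGG, which counts as a pair of overlapping boxes. RefSeq gives CDK1 a second start, and both stretches are shown. The upstream one, which holds the GENCODE gene start, has neither element in these letters. The downstream one has CHR letters at 69 and 13 bases before the start and 9 bases into it, and boxes at 78 and 46. CCNA2 and SPC24 show a CCAAT box, at 56 and 74 bases, and no exact CHR match in these letters. MKI67, which rose, has CHR letters at 47 and 29 bases, the nearer one overlapping an ATTGG.

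Start windows of 250 bases before and 50 after were held for 83 members, 103 windows in all, since some genes have several starts that can share sequence. CHR letters occurred in 53.4% of these windows, against 11.8% of the 13074 windows of all listed genes and 16.4% of all 35116 windows. CCAAT boxes occurred in 58.3% of the members' windows against 35.1% of those of listed genes, and both elements in 39.8% against 4.86%. Mitotic genes outside the symbol rule, described below, lay between. Their 157 windows had CHR letters in 31.2%, CCAAT boxes in 45.9% and both in 17.8%. Transport and other kinesins had CHR letters in 2 of 13 windows, and the remaining members, without the pseudogene rows, in 53 of 90. The members' matches gathered near the start. A CHR match began from 50 to 26 bases before it in 14.6% of the members' windows, against 1.02% for listed genes.

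Median log2 fold changes were much alike with and without exact CHR letters, and no difference between the groups was tested. The 51 members with CHR letters at any start had a median log2 fold change of -0.14, with 6 lower and 1 higher, and the 32 without had a median of -0.14, with 2 lower and 1 higher. Of the 8 members with a window that fell, 6 had CHR letters, as had 44 of 73 that did not pass.

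**Figure D2:**
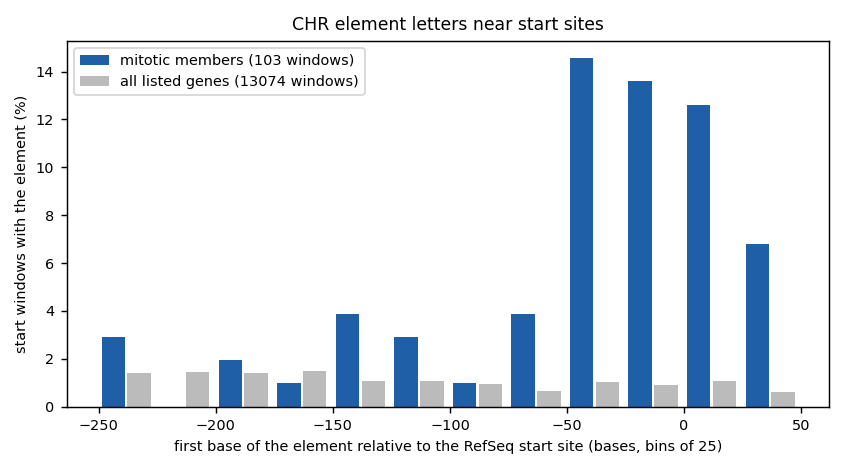
Share of start windows (y axis, percent) in which CHR letters begin in each bin of 25 bases relative to the RefSeq start (x axis), for members and for all listed genes, members included. The members' shares reach 14.6% just upstream of the start, while the bins of all listed genes lie between 0.597% and 1.48%.

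Polo-like and Aurora kinases and their partners lay mostly just below 0 and none of these 10 genes passed, with 1 at an unadjusted p under 0.05. That gene was PLK1, the Polo-like kinase of mitotic entry and spindle assembly. At -0.24 (SE 0.09, 95% interval -0.41 to -0.08, authors' adjusted p = 0.0529) it was, in the authors' deposited table, the first member outside the threshold, and UBE2C (authors' adjusted p = 0.0453) was the last inside it. TPX2, which activates Aurora A on spindle microtubules, stood at -0.17 (SE 0.09) and AURKA itself at -0.12 (SE 0.15) by the authors' deposited table. The chromosomal passenger complex corrects faulty attachments, and its 4 genes ran from -0.14 for CDCA8 (SE 0.14) to 0.06 for INCENP (SE 0.59). AURKB, its kinase, stood at -0.13 (95% interval -0.34 to 0.07) in the authors' deposited table.

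The stress-responsive family members PLK2 and PLK3 had positive values, 0.91 (SE 0.54) and 0.44 (SE 0.41), in the authors' deposited table. PLK2 was the largest positive value of any member, but at a mean normalized count of 17.7 its 95% interval ran from -0.15 to 1.97. In the authors' deposited table PLK4, the kinase of centriole duplication, stood at -0.22 (SE 0.22).

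All 8 spindle checkpoint and anaphase-promoting genes had negative values, with a median of -0.21, and 2 passed. TTK (ENSG00000112742.10, chr6:80003887-80042527, plus strand), the MPS1 kinase at the top of the checkpoint, fell by 0.45 (SE 0.13, authors' adjusted p = 0.0122) in the authors' deposited table. UBE2C (ENSG00000175063.17, chr20:45812576-45816957, plus strand), the ubiquitin-conjugating enzyme that starts chains for the anaphase-promoting complex, fell by 0.22 (SE 0.08, authors' adjusted p = 0.0453) in the authors' deposited table. UBE2C did not pass once the values of the authors' deposited table were recentred by 0.03 on the median abundant gene (Benjamini-Hochberg adjusted p = 0.102). CDC20, the activator of that complex, stood at -0.26 (95% interval -0.53 to 0.01), and the checkpoint genes BUB1B and BUB1 at -0.23 (SE 0.15) and -0.18 (SE 0.13), in the authors' deposited table. BUB3, the most abundant of them at a mean normalized count of 2938, stood at -0.06 with a 95% interval of -0.16 to 0.05 in the authors' deposited table.

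Genes grouped by symbol as centromere and kinetochore were the most numerous role, with 25 members, of which 4 fell and 1 rose. The share called lower was 16%, against 4.47% of all listed genes. Negative values were held by 19 of them (76%, against 49.9% of all listed genes). Their median log2 fold change was -0.19. The NDC80 complex, the rod by which kinetochores grip microtubules, held calls in both directions. Its microtubule-binding pair fell: NDC80 (ENSG00000080986.13, chr18:2571511-2616635, plus strand) by 0.48 (SE 0.15, authors' adjusted p = 0.0218) and NUF2 (ENSG00000143228.13, chr1:163266576-163355764, plus strand) by 0.53 (SE 0.14, authors' adjusted p = 0.00234) in the authors' deposited table. NUF2 was the largest fall of any called member, to 0.693 of the empty vector level.

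At the centromere-facing end, SPC24 (ENSG00000161888.12, chr19:11131520-11155808, minus strand) rose by 0.42 (SE 0.14, authors' adjusted p = 0.0327) in the authors' deposited table. In the authors' deposited table its partner SPC25 did not pass, at -0.39 (SE 0.17, authors' adjusted p = 0.160). The differences between these genes were not tested.

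The constitutive centromere network stays on centromeres through the cell cycle and anchors the rest. Of its 15 listed genes with a CENP symbol 1 fell, 0 rose and 12 had negative values. That was CENPH (ENSG00000153044.10, chr5:69189548-69210357, plus strand), at -0.28 (SE 0.09, authors' adjusted p = 0.0219) in the authors' deposited table. Its neighbours in the network CENPK (-0.41, SE 0.16), CENPQ (-0.53, SE 0.20) and CENPU (-0.32, SE 0.13) were as low or lower but less precisely measured, with authors' adjusted p of 0.0906, 0.0910 and 0.133 in the authors' deposited table. In the authors' deposited table CENPC, the scaffold on the CENP-A nucleosome, was positive (0.35, SE 0.26). CENPX, an abundant member of the network with a mean normalized count of 650, stood at 0.08 (95% interval -0.15 to 0.30).

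CENPV (ENSG00000166582.11, chr17:16342534-16353656, minus strand), a centromere protein linked to pericentromeric heterochromatin, fell by 0.48 (SE 0.10, authors' adjusted p = 9.30e-05) in the authors' deposited table; 258 of its exonic bases lie opposite exons of PIGL. CENPA, the centromeric histone variant, stood at -0.39 (SE 0.22) and the alpha-satellite binding protein CENPB at -0.11 (95% interval -0.25 to 0.04) in the authors' deposited table. The very large kinetochore proteins CENPE, a motor, and CENPF had positive values of 0.26 (SE 0.32) and 0.19 (SE 0.17) in the authors' deposited table.

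**Figure D3:**
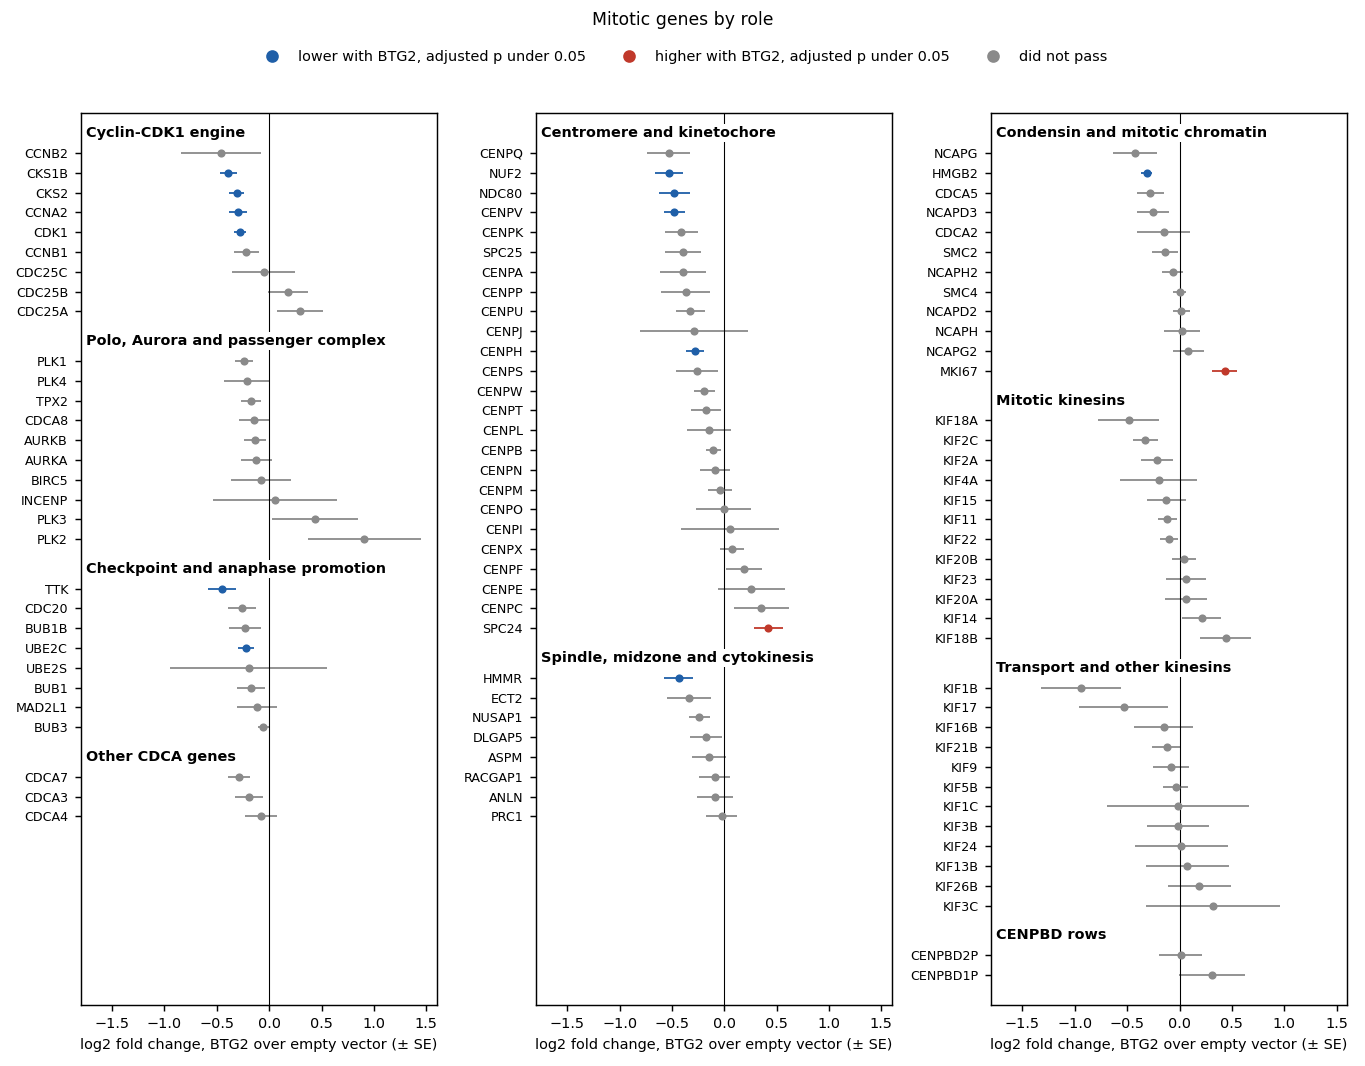
Log2 fold change of BTG2 over empty vector (x axis, points) with the authors' SE (bars) for members grouped by role; KIF3A and KIF27, with SE of 2.38 and 4.60, are not drawn. As deposited, the checkpoint and midzone genes all lie below 0 (PRC1 turns positive on recentring), while MKI67 and SPC24 stand at 0.43 and 0.42, the only called values above it.

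Spindle and cytokinesis genes all had negative values as deposited, 8 of 8, with a median of -0.16. By the authors' deposited table, HMMR (ENSG00000072571.20, chr5:163460203-163491945, plus strand), a hyaluronan receptor that also binds spindle microtubules, fell by 0.44 (SE 0.14, authors' adjusted p = 0.0276), the 1 gene of this role that passed. NUSAP1, which bundles spindle microtubules, stood at -0.24 (SE 0.10, authors' adjusted p = 0.136), and RACGAP1 of the centralspindlin complex at -0.09 (SE 0.15), both from the authors' deposited table. PRC1, which crosslinks the midzone, was at -0.02 (SE 0.15), and recentring on the median abundant gene turned it to 0.00231, leaving 7 of 8 negative.

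Condensin, the ring complex that compacts chromosomes, showed no called gene among its 8 subunits, and 4 of them had negative values. SMC4, one of its ATPases and its most abundant subunit at a mean normalized count of 1992, had a log2 fold change of 0.00 with a 95% interval of -0.11 to 0.12 in the authors' deposited table. NCAPD2 was held nearly as closely, at 0.02 (95% interval -0.14 to 0.17). NCAPG was the lowest subunit, at -0.42 (SE 0.21, authors' adjusted p = 0.259) in the authors' deposited table.

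The other chromatin genes of mitosis went both ways. HMGB2 (ENSG00000164104.12, chr4:173331695-173335125, minus strand), a DNA-bending chromatin protein of proliferating cells, had the smallest p of any member. It fell by 0.31 (SE 0.05, authors' adjusted p = 1.89e-07), to 0.805 of the empty vector level, at the highest mean normalized count of any member, 4683, in the authors' deposited table. MKI67 (ENSG00000148773.14, chr10:128096659-128126385, minus strand), which codes for the proliferation marker Ki-67 that coats mitotic chromosomes, rose by 0.43 (SE 0.12, authors' adjusted p = 0.00550), to 1.35 times the empty vector level, in the authors' deposited table. CDCA5, also called sororin and a protector of sister chromatid cohesion, stood at -0.28 (SE 0.13, authors' adjusted p = 0.190) in the authors' deposited table. Of the remaining CDCA genes, CDCA7 (-0.29, authors' adjusted p = 0.0643), CDCA3 (-0.19) and CDCA4 (-0.08) were negative and did not pass in the authors' deposited table.

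None of the 12 mitotic kinesins passed, with 1 at an unadjusted p under 0.05, and their median was -0.11. That gene was KIF2C, which depolymerises microtubules at centromeres, at -0.33 (SE 0.12, authors' adjusted p = 0.0752) in the authors' deposited table. The 3 most abundant had intervals that include 0. KIF22, the chromokinesin Kid, stood at -0.10 (95% interval -0.27 to 0.06), KIF11, the Eg5 motor that separates spindle poles, at -0.12 (95% interval -0.30 to 0.07), and KIF20B at 0.04 (95% interval -0.18 to 0.27) in the authors' deposited table.

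The symbol rule also took 14 kinesins of transport or unclear mitotic role, with a median mean normalized count of 39.6 and a median log2 fold change of -0.01. None passed, and 1 had an unadjusted p under 0.05. KIF1B, a cargo motor, had the largest negative value of any member, -0.94 (SE 0.39, authors' adjusted p = 0.127), at a mean normalized count of 35.0 in the authors' deposited table. KIF5B, the conventional kinesin heavy chain, was at -0.04 (95% interval -0.27 to 0.20), KIF21B at -0.12 (SE 0.14) and KIF9 at -0.08 (SE 0.17) in the authors' deposited table. Also matched were CENPBD1P (0.31, SE 0.32) and CENPBD2P (0.01, SE 0.21), rows named as pseudogenes, which did not pass.

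For the 89 members that did not pass, a miss does not show that their level was the same in both groups. Their median was -0.12, and 62 were negative. The 95% interval lay wholly below 0 for 11 of them and wholly above 0 for 0. Intervals stayed within 0.5 of 0 on the log2 scale for 40 of the 89, and within 0.25 for 4. These interval counts were not made for the other listed genes. An unadjusted p under 0.05 was held by 25 of the 103 members, 14 of them called. It was held by 2036 of the 11597 listed genes in either direction, 940 of them called.

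Log2 fold changes differed with transcript length among the members. In the 25 members with the shortest transcripts, 613 to 2227 bases, 24 had negative values, the median was -0.28, 9 fell and 0 rose. These included CKS2, CKS1B, UBE2C, CENPV, CENPH, HMGB2, CDK1, NUF2 and NDC80. The next 25 (2248 to 3229 bases) had a median of -0.12 and the 25 after them (3262 to 5020 bases) a median of -0.15. The median SE was 0.12 in the shortest 25 and 0.18 in the longest 25. In the 25 with the longest transcripts, 5061 to 12678 bases, 12 had negative values, the median was 0.00, 0 fell and MKI67, the longest of all, rose.

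The same direction appeared over the whole table with smaller values. Listed genes of those shortest lengths had a median of -0.07 (2780 genes, 8.96% lower) and those of the longest lengths had a median of 0.06 (2329 genes, 1.25% lower). Across 100 members with an SE under 1, Spearman's rho of log2 fold change with transcript length was 0.41, against 0.21 across 10136 listed genes. With mean counts from the table's median up, a condition added after the data were seen, it was 0.50 across 62 members and 0.23 across 5575 genes. All points share the same 4 libraries, so these are descriptions. Mean count moved with length, with a median of 494 in the shortest 25 members and 166 in the longest 25, and its part in the relation was not tested.

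The 3′ untranslated region (3′ UTR) showed the same lean. Members that fell had a median 3′ UTR of 355 bases against 830.5 in those that did not pass, and rho with 3′ UTR length was 0.32. Over all listed genes these were 745 against 1304 bases, with a rho of 0.15. Coding length gave a rho of 0.28 in members and 0.14 over all listed genes. For the density of AUUUA, the core of AU-rich decay elements, rho was -0.09. The density ranged from 0 per kb in TTK, NDC80, CENPV and UBE2C to 10.2 per kb in NUF2 among the members that fell.

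**Figure D4:**
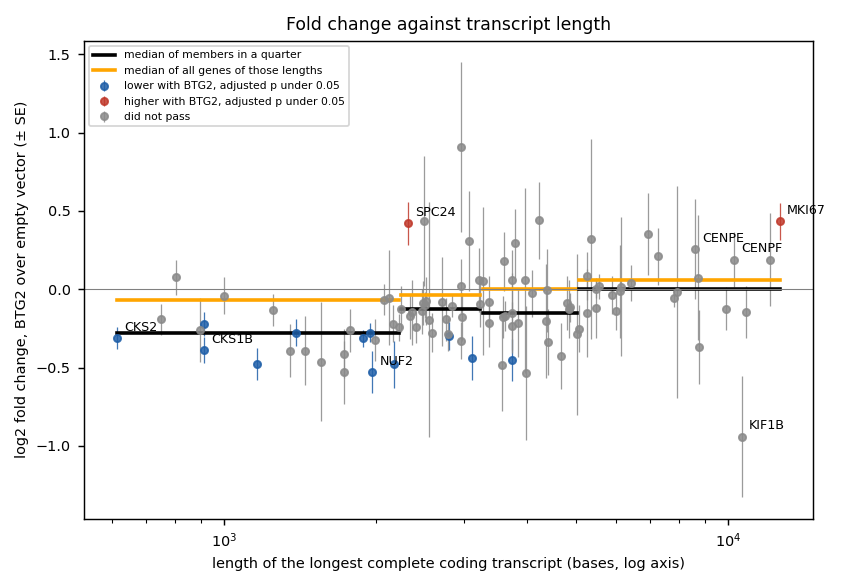
Log2 fold change of BTG2 over empty vector with the authors' SE (y axis) against the length of each member's longest complete coding transcript (log x axis, bases); black bars are medians of 25 members each and orange bars those of all listed genes of the same lengths. The black bars stand, from left to right, at -0.28, -0.12, -0.15 and 0.00, and the orange bars run between -0.07 and 0.06.

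Mitotic genes outside the symbol rule were called about as often as the table as a whole. Of 122 further genes of mitosis 121 were listed, of which 8 fell (6.61%) and 0 rose, with a median log2 fold change of -0.08. Over all listed genes 8.11% were called in either direction and 4.47% lower. Recentred on the median abundant gene, 5 were lower (4.13%, against 3.73% of all listed genes) and 1 higher. MYBL2, the B-MYB factor that acts with MuvB on G2 and mitosis genes, fell by 0.34 (SE 0.07, authors' adjusted p = 0.000133) in the authors' deposited table. FBXO5, the EMI1 inhibitor of the anaphase-promoting complex, fell by 0.41 (SE 0.11, authors' adjusted p = 0.00571), and TOP2A, the topoisomerase that untangles sister chromatids, by 0.22 (SE 0.07, authors' adjusted p = 0.0167), in the authors' deposited table.

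The cohesin ATPase SMC3 (-0.33), the kinetochore protein PMF1 (-0.31), the checkpoint-related MAD2L2 (-0.26), ARL6IP1 (-0.20) and the microtubule destabiliser STMN1 (-0.17) completed the 8 in the authors' deposited table. SMC3, ARL6IP1 and STMN1 did not pass after recentring the authors' deposited table (Benjamini-Hochberg adjusted p of 0.0712, 0.0738 and 0.0904). Genes of earlier phases were lower at least as often as the mitotic members. Of 45 DNA replication genes 7 fell (15.6%, against 11.7% of the mitotic members and 4.47% of all listed genes) and 2 rose. Their median was -0.11, and 77.8% had negative values, against 71.8% of the mitotic members. The order depended on the setting. Replication genes were lower more often at a limit of 0.01 (8.89% against 5.83% of members) and after recentring (15.6% against 10.7%). They were lower less often at a limit of 0.1 (15.6% against 16.5%) and among genes from the table's median count up (20.6% against 24.2%). Of 16 listed G1 cyclins, kinases and inhibitors 2 fell (12.5%) and 1 rose (median -0.11). No difference between these lists and the mitotic members was tested.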

How the data were processed

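Poly(A) RNA of MOLM13 cells was compared between BTG2_OE and EV libraries, grouped by sample title. The data are the authors' deposited results table. Per the file headers it gives each gene's mean normalized count over libraries, a signal scaled by the authors. The authors deposited log2 fold changes, BTG2 over empty vector, with their standard errors. The deposited test statistic is a score equal to the fold change over its SE, and the deposited p-value and adjusted p-value are the authors' own. Recomputed values differed from the deposited statistic by at most 2.72e-07 and from a Benjamini-Hochberg adjusted p by at most 1.48e-06. Per the submitters' processing notes, minimap2 and hg38 were used; the counting program, annotation, filter and test program are unstated in the sources. The labels' protocols describe paired short reads and the series title long reads.

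A gene was called at the authors' adjusted p under 0.05 over all listed genes. Intervals are 95% normal intervals from the deposited SE. The members and lists were chosen with earlier results of these data known, and protein complexes within the roles were grouped after the values were seen. The text names every called member, the 3 members of highest mean count in each role, the largest rise and fall, BTG2, and up to 10 called genes of the list of other mitotic genes; further genes named were chosen after their values were seen. Transcript features came from the longest complete coding transcript per gene (GENCODE release 29), held for 102 members; identifiers of 11398 listed genes matched. Start windows came from RefSeq on GRCh38.p14. Recomputed adjustments were checked on simulated data. Alternatives were other adjusted p limits, a minimum fold change, recentring, abundant genes alone and a test against a log2 fold change of 0.2. Python 3.11.15, numpy 2.4.6, pandas 2.3.3 and scipy 1.17.1 were used.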

Additional observations from a re-analysis of the deposited data

How the results depend on the processing

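The count of 14 called members (13.6%, against 8.11% of all listed genes) became 7 at an adjusted p limit of 0.01 (6.80% against 5.36%) and 1, NUF2, with a minimum absolute log2 fold change of 0.5 (0.971% against 3.35%, below the whole table). It became 0 when tested against a size of 0.2 on the log2 scale, against 220 of all listed genes; 5 members (4.85%) had an unadjusted p under 0.05 in that test, as had 4.82% of all listed genes. It was 19 at a limit of 0.1 (18.4% against 10.55% of all listed genes) and 13 after recentring (12.6% against 8.05%). Among abundant genes alone it was 17 of 62 members (27.4% against 15.9% of abundant listed genes). Without transport kinesins and pseudogene rows it was 14 of 87 members. The 8 other mitotic genes became 3 at a limit of 0.01 (2.48% against 5.36%) and 14 at 0.1 (11.6% against 10.55%). They became 0 with the minimum fold change and 0 in the test against 0.2, where 0 had an unadjusted p under 0.05. Recentring gave 6 (4.96% against 8.05% of all listed genes, below the whole table). Abundant genes alone gave 12 of 88 (13.6% against 15.9% of abundant listed genes, again below). The members' median of -0.13 ranged from -0.16 to -0.11 over its alternatives. Recentring the authors' deposited table, by 0.03, ended the calls of UBE2C, SMC3, ARL6IP1 and STMN1, and turned the sign of PRC1 and KIF1C (Benjamini-Hochberg adjusted p = 0.997 each), KIF3B (0.994) and CENPO (0.991), so that 70 of 103 members were negative. Among abundant genes PLK1 passed at 0.0317, CDCA7 at 0.0386 and KIF2C at 0.0452. No paired analysis was possible because the deposited columns hold the authors' comparison and no values per library, and for the same reason libraries could not be left out in turn. Exons of 26 members, 3 of them called, overlap another listed gene.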
